A study of Mus musculus with 12 samples.

Results

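The chemokine system of mouse skin was followed through 50 genes, 32 of them ligands and 18 receptors, in 12 RNA samples hybridised to Affymetrix arrays. A gene was taken when the platform annotation gave its probe sets a single symbol made of Ccl, Cxcl, Ccr, Cxcr, Xcl, Xcr or Cx3c and a number, or l or r and a number. This chose 67 of 22690 probe sets, and 50 of the 12393 genes measured. A probe set is a group of short array probes read together as 1 value, and a gene with several was represented by the one with the highest mean over the arrays. The 5 cultures held primary keratinocytes, the epithelial cells of the epidermis, from newborn mice. Each pooled cells of 5 mice of the same unnamed genotype and was grown for up to 3 days, unpassaged, in medium low in calcium. Whole skin tissue gave 5 samples at 30 days of age and 2 from newborn mice. Cultures 1 and 2 and all samples of 30-day skin came from mice of a C57, DBA and FVB mixed background, and cultures 3, 4 and 5 and both samples of newborn skin from FVB mice. No treatment or altered gene is named in the labels. Age and strain coincide within skin and cannot be told apart there. Whether each skin sample was a separate animal is not stated in the labels, so p-values rest on a spread that may be technical.

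The labelled cell types were checked first. Krt14, the basal keratin, was 13.25 to 13.44 in culture, 11.81 to 12.15 in 30-day skin and 12.29 and 12.56 in newborn skin, as log2 values of RMA, a method that normalises arrays and summarises probe sets. Ptprc, which marks nearly all leukocytes, was 3.75 to 3.97 in culture, 5.74 to 7.21 in 30-day skin and 5.29 and 5.17 in newborn skin, and all 11 general leukocyte markers and all 11 fibroblast markers were lower in culture than in skin. Replicate 1 of 30-day skin stood apart. There the log2 signal for the 3′ end of actin exceeded that for the 5′ end by 1.74, compared with 0.67 to 0.82 in the other 4 samples of 30-day skin, and 18S rRNA was 8.16, compared with 5.30 to 5.93. Ptprc was also highest there. Results that depended on replicate 1 are given with and without it. The actin measure also differed between groups, at 0.21 to 0.74 in culture and 0.99 and 1.14 in newborn skin. Its part in the differences below was not tested. In bulk samples fewer cells of a type and less RNA per cell cannot be told apart, which holds for every skin value below.

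Chemokines are small secreted proteins that direct the movement of leukocytes, which sense them through receptors coupled to G proteins. They are named CC, CXC, XC or CX3C for the spacing of their first cysteines, and most receptors read several ligands. Some ligands are made at rest and set where cells live in a tissue, whereas others are switched on in epithelial cells, fibroblasts and macrophages by cytokines such as interleukin 1 and tumour necrosis factor. In skin they draw in neutrophils, monocytes and T cells after injury and keep dendritic cells and resident lymphocytes in place.

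Large differences went in both directions. Of the 50 members 2 were called at least 1 higher on the log2 scale in culture than in skin, Cxcl16 and Cxcl1. The share of all genes was 4.14%. Another 6 of the 50 were called at least 1 lower, Cxcl12, Cxcl14, Cxcr4, Ccl8, Ccl6 and Ccl9, beside 7.58% of all genes. A difference was called when its adjusted p in limma, Benjamini-Hochberg over all 12393 genes and two-sided, was under 0.05. Culture against skin, the cultures set against the equally weighted mean of both skin groups, called 7 members higher and 12 lower, which is 38% of the 50, beside 47% of all genes (24.6% higher, 22.4% lower). Against newborn skin alone 6 were higher and 9 lower, 30% beside 36.5% of all genes (17.9% higher, 18.6% lower). Against 30-day skin 6 were higher and 12 lower, 36% beside 48.3% of all genes (26.5% higher, 21.9% lower). Between the skins 5 were higher and 1 lower at 30 days, 12% beside 15.8% of all genes (5.91% higher, 9.84% lower). In mixed-strain against FVB cultures 4 were higher and none lower, 8% beside 9.84% of all genes (3.18% higher, 6.66% lower). The median log2 difference of the 50 members was -0.08, -0.02, -0.12, 0.09 and 0.14 in these 5 comparisons, beside 0.01, 0.01, 0.02, -0.01 and -0.01 over all genes. With higher and lower calls pooled, the share of members called was above that of all genes in no comparison. Counted by direction, the share of members was above that of all genes for lower calls in culture against skin and against 30-day skin. It was also above for higher calls in 30-day against newborn skin and in mixed-strain against FVB cultures. For all other directions it was below. The differences in share were not tested.

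**Figure D1:**
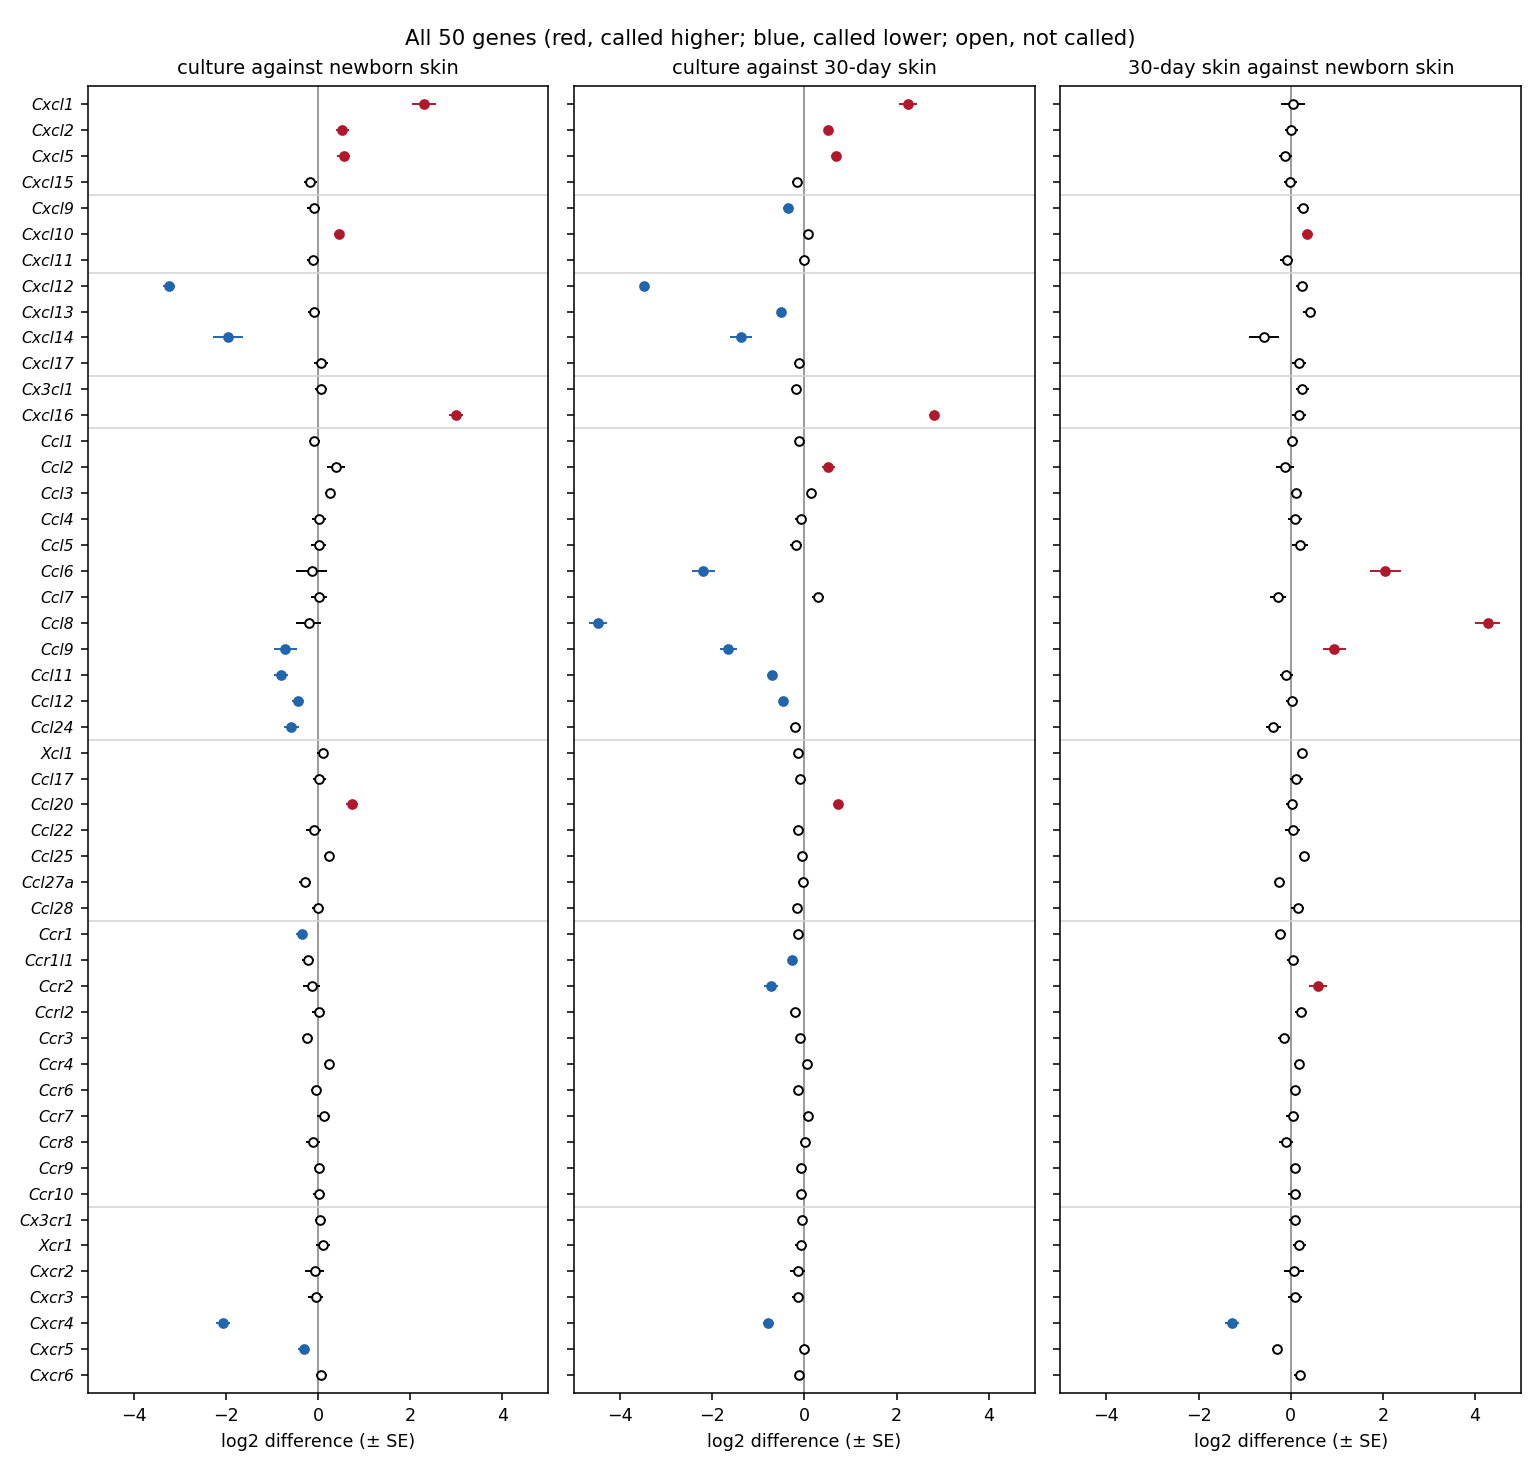
Log2 difference of each of the 50 members (points, with standard errors as whiskers) in culture against newborn skin, culture against 30-day skin and 30-day against newborn skin, ordered by role from neutrophil-attracting CXC chemokines at the top to receptors at the bottom. Most points lie near 0, Cxcl16 and Cxcl1 stand to the right in both culture panels, Cxcl12 to the left in both, and Ccl8 and Ccl6 to the right in 30-day against newborn skin.

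Ligands, 32 of the 50 members, made up most of the calls. In culture against skin 7 of the 32 ligands were higher and 9 lower, 50% beside 47% of all genes. Of the 18 receptors none was higher and 3 were lower, 16.7%. Over the 5 comparisons 23 members (46%) were called at least once and 27 never, beside 59.8% of all genes called at least once. Where leaving out or averaging arrays leaves newborn skin or the mixed-strain cultures with 1 value, that value is assumed to vary like the other groups, and a call lost there is lost with fewer samples. Signals were mostly dim: 35 members lay below the median gene of the array on all 12 arrays, and only Cxcl14 and Cxcl16 lay above it on all 12. RMA values carry no detection call, so a low value gives no statement on whether a gene was expressed, and a flat one at the dim end says little about change.

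The neutrophil-attracting CXC chemokines, which act through Cxcr2, were higher in culture for 3 of 4 measured members. Cxcl1, the ligand keratinocytes and fibroblasts release early after injury, gave log2 values of 6.91, 7.06, 6.13, 6.73 and 5.76 in the 5 cultures, 4.27, 4.34, 4.29, 4.19 and 4.24 in the 5 samples of 30-day skin, and 4.25 and 4.19 in newborn skin. Every culture lay above every skin sample, by 2.28 ± 0.19 (standard error) on the log2 scale or 4.84-fold (adjusted p = 1.55e-07), and the difference was 2.30 against newborn and 2.25 against 30-day skin. Both skin groups sat within a narrow band, and 30-day against newborn skin differed by 0.04 (adjusted p = 0.947). Cxcl2, its close relative, was 4.02 to 4.48 in culture, 3.59 to 3.90 in 30-day skin and 3.71 and 3.71 in newborn skin, a difference of 0.52 ± 0.098 against skin (adjusted p = 0.000422). Cxcl5 was 4.32 to 4.84 in culture, 3.82 to 4.08 in 30-day skin and 3.97 and 4.12 in newborn skin, a difference of 0.62 ± 0.10 (adjusted p = 0.000124). For both, the lowest culture lay above the highest skin sample. Cxcl15, known from lung epithelium, passed in no comparison (culture against skin -0.17). Against newborn skin alone, the call of Cxcl2 was lost without its replicate 2 (0.53, adjusted p = 0.0509) and that of Cxcl5 without its replicate 1 (0.49, adjusted p = 0.0755). When arrays were centred on epithelial junction genes, a setting that moved the median of all genes by -0.64 in that comparison, Cxcl2 and Cxcl5 turned to -0.11 and -0.08 while Cxcl1 stayed higher at 1.66.

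Ppbp, which encodes another Cxcr2 ligand and lies between Cxcl5 and Cxcl1 on chromosome 5 but bears a symbol outside the rule, had the same direction. It gave 7.68, 7.50, 7.23, 7.48 and 6.92 in culture, 4.17, 3.85, 4.06, 4.13 and 3.98 in 30-day skin and 4.24 and 4.21 in newborn skin, 3.23 ± 0.12 higher in culture than in skin (adjusted p = 2.57e-11). Pf4, the gene beside it, ran the other way, at 5.09 to 5.52 in culture, 7.46 to 8.20 in 30-day skin and 9.29 and 9.09 in newborn skin, a difference of -3.24 ± 0.12 (adjusted p = 3.11e-11). Its product is stored in platelets and is also made by some tissue macrophages. In RefSeq order the stretch runs Cxcl5, Ppbp, Pf4, Cxcl3, Cxcl15, Cxcl1 and Cxcl2 with no coding gene of another kind between. The receptor Cxcr2 passed in no comparison and was 5.40 to 6.05 in culture, 5.54 to 6.43 in 30-day skin and 6.05 and 5.65 in newborn skin. Of 11 neutrophil markers, 3 were higher and 2 lower in culture than in skin. The higher ones were S100a8 (2.11), S100a9 (3.52) and Mmp9 (2.66), which keratinocytes can also make, and the lower ones Camp (-0.70) and Csf3r (-0.27). Their part in the chemokine differences was not tested.

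Promoters were read for Cxcl1, Cxcl2 and Ccl20 because these 3 were higher in culture and their sequences hold a match to a κB motif, the kind of site bound by NF-κB. The motif searched was 3 G, any 2 bases, 3 T and 2 C, and capitals mark it on either strand. Each run is the 120 bases before the start of transcription on the plus strand, from RefSeq on GRCm38.p6, at chr5:90891125-90891244 for Cxcl1, chr5:90903779-90903898 for Cxcl2 and chr1:83116646-83116765 for Ccl20.
Cxcl1: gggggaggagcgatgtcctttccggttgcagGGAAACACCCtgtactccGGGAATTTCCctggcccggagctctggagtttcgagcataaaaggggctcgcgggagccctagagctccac
Cxcl2: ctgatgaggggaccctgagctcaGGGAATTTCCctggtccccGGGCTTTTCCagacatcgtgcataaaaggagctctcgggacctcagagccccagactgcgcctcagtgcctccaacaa
Ccl20: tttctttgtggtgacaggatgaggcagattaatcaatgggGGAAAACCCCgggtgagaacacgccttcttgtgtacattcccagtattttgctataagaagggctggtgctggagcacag
Counted from the start, the first bases of the matches were at -89 and -71 in Cxcl1, -97 and -78 in Cxcl2 and -80 in Ccl20. Of the 50 members 37 had a promoter in the table, which does not include Cxcl5, Cxcl16 or Ccl2. In the full windows, 250 bases before to 50 after the start, 5 of these 37 (13.5%) held the motif, beside 535 of 32851 promoters (1.63%). The units differ: members are genes with a match in any of their promoters, and the background is single promoters. The other 2 were Ccl9 and Ccr3, and Ccl9 was lower in culture. A match is a description of letters, not of binding.

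Cxcl16 had the largest increase in culture of all members. It encodes a chemokine tethered to the membrane, which can be shed, and is also known as a scavenger receptor for oxidised lipoprotein. Its log2 values were 9.97, 10.05, 9.90, 9.50 and 9.71 in the 5 cultures, 6.92, 6.78, 7.23, 7.11 and 7.01 in the 5 samples of 30-day skin, and 6.77 and 6.89 in newborn skin. The lowest culture lay well above the highest skin sample, at a difference of 2.91 ± 0.11 or 7.5-fold (adjusted p = 3.11e-11). The second probe set gave 4.13 ± 0.075 in the same direction, with cultures averaging 9.22, 30-day skin 5.20 and newborn skin 4.98. The gain held in all 22 alternative settings, between 2.49 and 3.52. Between 30-day and newborn skin it did not pass (0.18, adjusted p = 0.504), nor between mixed-strain and FVB cultures (0.31, adjusted p = 0.203). Its receptor Cxcr6, carried by T cells and related lymphocytes, passed in no comparison and was 4.67 to 5.01 in culture, 4.84 to 5.13 in 30-day skin and 4.79 and 4.78 in newborn skin. The other tethered chemokine, Cx3cl1, was 5.85 to 6.31 in culture, 6.29 to 6.41 in 30-day skin and 6.26 and 5.90 in newborn skin, with differences of -0.06 in culture against skin and 0.25 in 30-day against newborn skin that did not pass. Its second brightest probe set was called lower in culture (-0.22), and its receptor Cx3cr1 passed in no comparison (0.00 in culture against skin).

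**Figure D2:**
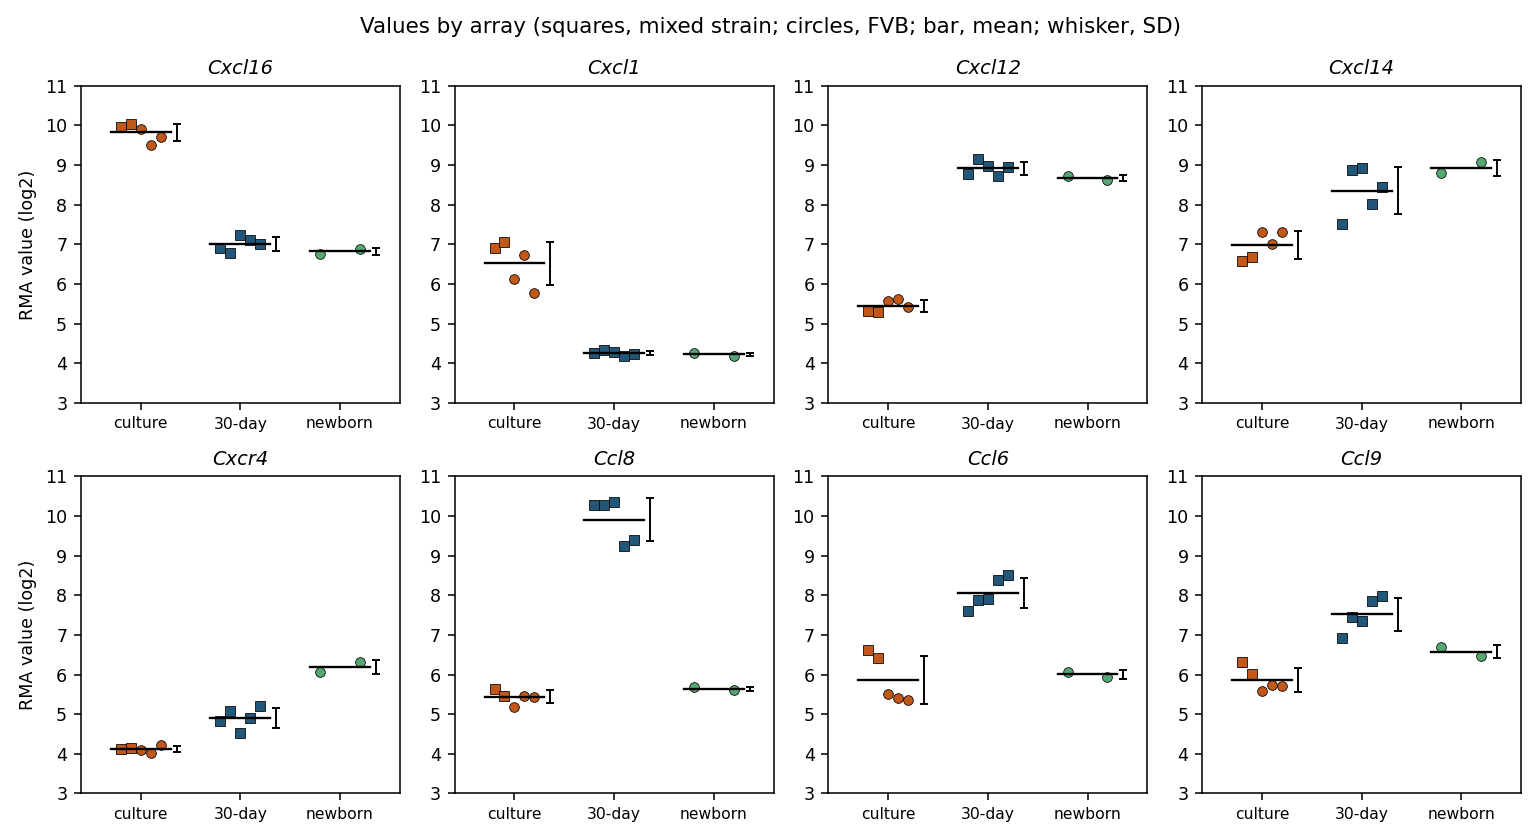
RMA values (log2) of the 8 members with a called difference of at least 1 on the log2 scale, by array, in culture, 30-day skin and newborn skin. Squares are mixed-strain and circles FVB samples, bars are means and whiskers SDs. Cultures lie above all skin samples for Cxcl16 and Cxcl1 and below all of them for Cxcl12, Cxcl14, Cxcr4 and Ccl9, and 30-day skin stands above both other groups for Ccl8, Ccl6 and Ccl9.

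Of 4 chemokines made at rest, 3 were lower in culture than in skin and none higher, beside 22.4% of all genes lower. Against newborn skin alone 2 of the 4 were lower, Cxcl12 and Cxcl14, beside 18.6% of all genes. Cxcl12, which holds stem cells and leukocytes in place through Cxcr4 and is made by fibroblasts and other stromal cells, gave 5.33, 5.28, 5.58, 5.61 and 5.42 in the 5 cultures, 8.78, 9.15, 8.98, 8.74 and 8.96 in the 5 samples of 30-day skin, and 8.74 and 8.61 in newborn skin. It was lower in culture by 10.2-fold (log2 difference -3.35 ± 0.096, adjusted p = 1.46e-12), the largest decrease among members in that comparison. Its level did not separate 30-day from newborn skin on this probe set (0.25, adjusted p = 0.251). The dimmer probe set gave a smaller decrease in culture (-1.57 ± 0.086) and did separate the skins: it averaged 7.67 in 30-day skin and 6.59 in newborn skin, a difference of 1.08 ± 0.12 (adjusted p = 5.08e-05). Beside this decrease, the fibroblast markers had a median of -5.05 in culture against skin, with 11 of 11 lower, and their mean over the list was 5.62 to 6.14 in culture, 9.69 to 10.23 in 30-day skin and 10.48 to 10.51 in newborn skin. Their part in the decrease was not tested.

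Cxcl14, a chemokine of epithelia and stroma, gave 6.59, 6.67, 7.32, 7.01 and 7.32 in the 5 cultures, 7.51, 8.88, 8.92, 8.03 and 8.44 in the 5 samples of 30-day skin, and 8.80 and 9.08 in newborn skin. All cultures lay below all skin samples (-1.66 ± 0.23, adjusted p = 3.24e-05). Replicate 1 of 30-day skin was the lowest skin sample, and without it the difference was -1.77 ± 0.18 (adjusted p = 2.17e-06). The second probe set gave -2.30 ± 0.21. The probe sets disagreed in direction between the skins, at -0.58 and 0.13 in 30-day against newborn skin, and neither passed. Cxcl13, which draws B cells through Cxcr5, was lower in culture than in 30-day skin (-0.50 ± 0.10, adjusted p = 0.00102) and not than in newborn skin (-0.08, adjusted p = 0.702). Its call against both skin groups (-0.29, adjusted p = 0.0274) was lost without cultures 3 or 4 or either sample of newborn skin (adjusted p between 0.0635 and 0.0858). Between the skins its brightest probe set did not pass (0.41, adjusted p = 0.0573) and its dimmer one did (0.40). Cxcl17 passed in no comparison and was 5.96 to 6.54 in culture, 6.21 to 6.59 in 30-day skin and 6.31 and 6.05 in newborn skin.

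**Figure D3:**
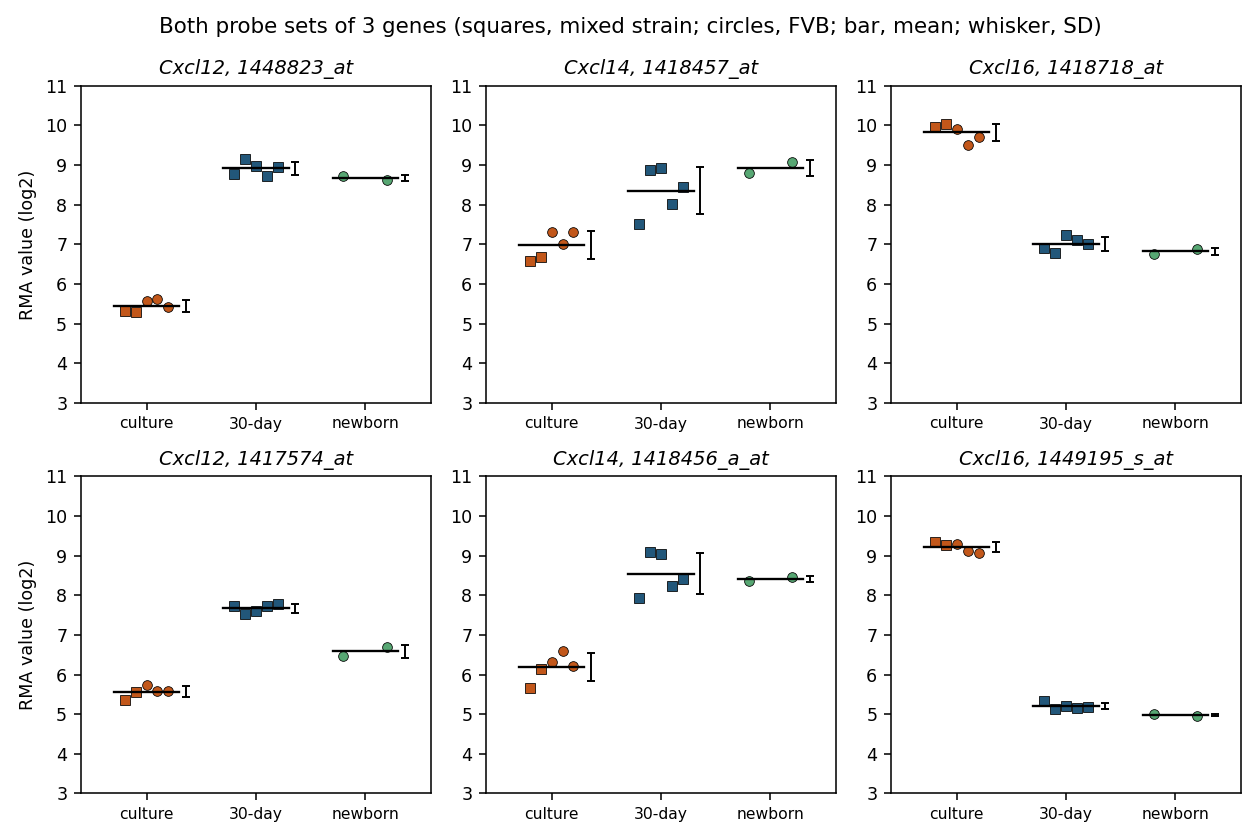
RMA values (log2) of both probe sets of Cxcl12, Cxcl14 and Cxcl16 by array, brightest probe set on top, in culture, 30-day skin and newborn skin (squares, mixed strain; circles, FVB; bars, means; whiskers, SDs). Both probe sets place the cultures on the same side of skin for each gene, while the lower one of Cxcl12 alone sets 30-day above newborn skin.

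Cxcr4, the receptor for Cxcl12, was the receptor with the largest differences. It gave 4.13, 4.16, 4.10, 4.02 and 4.24 in the 5 cultures, 4.83, 5.07, 4.53, 4.92 and 5.21 in the 5 samples of 30-day skin, and 6.07 and 6.32 in newborn skin. Culture was lowest, 30-day skin between and newborn skin highest, with no overlap between groups. Culture was -2.07 ± 0.15 against newborn skin (adjusted p = 6.00e-08) and -0.78 ± 0.11 against 30-day skin (adjusted p = 4.57e-05). The 30-day samples differed from newborn skin by -1.28 ± 0.15 (adjusted p = 5.16e-05), and it passed in all 21 alternative settings run. Cxcr4 is carried by leukocytes and endothelium among others. In the same comparison 8 of 13 endothelial and lymphatic markers were lower and none higher, with list means of 5.82 to 5.95 in 30-day skin and 6.40 to 6.45 in newborn skin, and 6 of 9 mast cell markers were lower. General leukocyte markers were higher for 4 and lower for 1 of 11, macrophage markers higher for 5 of 14 and T cell markers higher for 2 of 10. Their part in the difference was not tested. The scavenger receptor Ackr3, which takes up Cxcl12, was 5.42 to 6.71 in culture, 5.98 to 6.40 in 30-day skin and 6.52 and 6.60 in newborn skin, and did not pass in culture against skin.

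Of 12 inflammatory CC chemokines, which draw monocytes, eosinophils and T cells, 3 were higher in 30-day than in newborn skin, none lower, and 9 did not pass. Ccl8, in mouse a ligand of Ccr8, gave 5.64, 5.47, 5.18, 5.47 and 5.44 in the 5 cultures, 10.29, 10.29, 10.35, 9.24 and 9.40 in the 5 samples of 30-day skin, and 5.68 and 5.60 in newborn skin. Only 30-day skin was high, at 19.3-fold over newborn skin (4.27 ± 0.27, adjusted p = 1.01e-07) and with culture 22.3-fold below it. Culture did not differ detectably from newborn skin (-0.20, adjusted p = 0.628), and its call in culture against skin (-2.34) rested on the 30-day samples. Within 30-day skin replicates 4 and 5 lay about 1 lower than replicates 1 to 3. Without replicate 1 of 30-day skin the difference between the skins was 4.18 ± 0.27, and over all 22 alternative settings it lay between 3.82 and 4.52. The receptor Ccr8 passed in no comparison and was 4.04 to 4.69 in culture, 4.21 to 4.44 in 30-day skin and 4.38 and 4.52 in newborn skin.

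Ccl6, which attracts monocytes and other myeloid cells in mouse, gave 6.63, 6.43, 5.51, 5.41 and 5.35 in the 5 cultures, 7.59, 7.89, 7.91, 8.39 and 8.51 in the 5 samples of 30-day skin, and 6.08 and 5.93 in newborn skin. It was higher in 30-day than in newborn skin by 2.05 ± 0.33 (adjusted p = 0.000753), and its second probe set was higher too (0.87). The difference was 2.17 without replicate 1 of 30-day skin. It was 0.95 (adjusted p = 0.0475) when the strain difference measured between cultures was taken off skin, and 1.98 (adjusted p = 0.0726) when arrays of close pairs were averaged, which leaves newborn skin with 1 value. Culture was -2.19 against 30-day skin (adjusted p = 4.40e-06) and -0.14 against newborn skin, which did not pass with all cultures. Over FVB samples alone, matched for strain and age, it did (-0.58 ± 0.13, adjusted p = 0.00129).

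Ccl9, encoded beside Ccl6 and also a myeloid attractant, gave 6.33, 6.02, 5.58, 5.74 and 5.70 in the 5 cultures, 6.94, 7.44, 7.36, 7.87 and 8.0 in the 5 samples of 30-day skin, and 6.70 and 6.46 in newborn skin. It was lowest in culture, between in newborn skin and highest in 30-day skin, without overlap. Against 30-day skin culture was -1.65 ± 0.19 (adjusted p = 4.22e-06). The step between skins was 0.94 ± 0.25 (adjusted p = 0.0193), and was lost without newborn replicate 1 (1.06, adjusted p = 0.0824) or 2 (0.82, adjusted p = 0.212). With the strain difference between cultures taken off skin the step was 0.44 (adjusted p = 0.467), and with close pairs averaged 0.84 (adjusted p = 0.32). The call against newborn skin (-0.71 ± 0.25, adjusted p = 0.0387) was lost without any 1 of cultures 3 to 5 (adjusted p between 0.0682 and 0.0763) or either sample of newborn skin (adjusted p between 0.0963 and 0.252). Over FVB samples alone, matched for strain and age, culture was -0.91 ± 0.14 against newborn skin (adjusted p = 1.44e-05). With strain as a covariate that difference was also -0.91 (adjusted p = 0.00641). The dimmer probe set of Ccl9 was lower in culture than in skin (-0.55) but did not pass between the skins (0.66).

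The genes lie in a pair of groups of neighbours on chromosome 11. Ccl2, Ccl7, Ccl11, Ccl12, Ccl8 and Ccl1 follow each other in RefSeq order, then 25 other coding genes, then Ccl5, Ccl9, Ccl6, Ccl3 and Ccl4. Of these 11 genes only Ccl8, Ccl6 and Ccl9 were called in 30-day against newborn skin. The 8 others lay between -0.28 and 0.20. The direct neighbours of Ccl8, Ccl12 and Ccl1, differed by 0.03 and 0.04. With the strain difference between cultures taken off skin, Ccl2 (-0.72, adjusted p = 0.0237) and Ccl7 (-0.79, adjusted p = 0.0139) were also called, lower in 30-day skin. Ccl9 was then not called. These results assume the same strain difference in skin as in culture, which could not be measured.

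**Figure D4:**
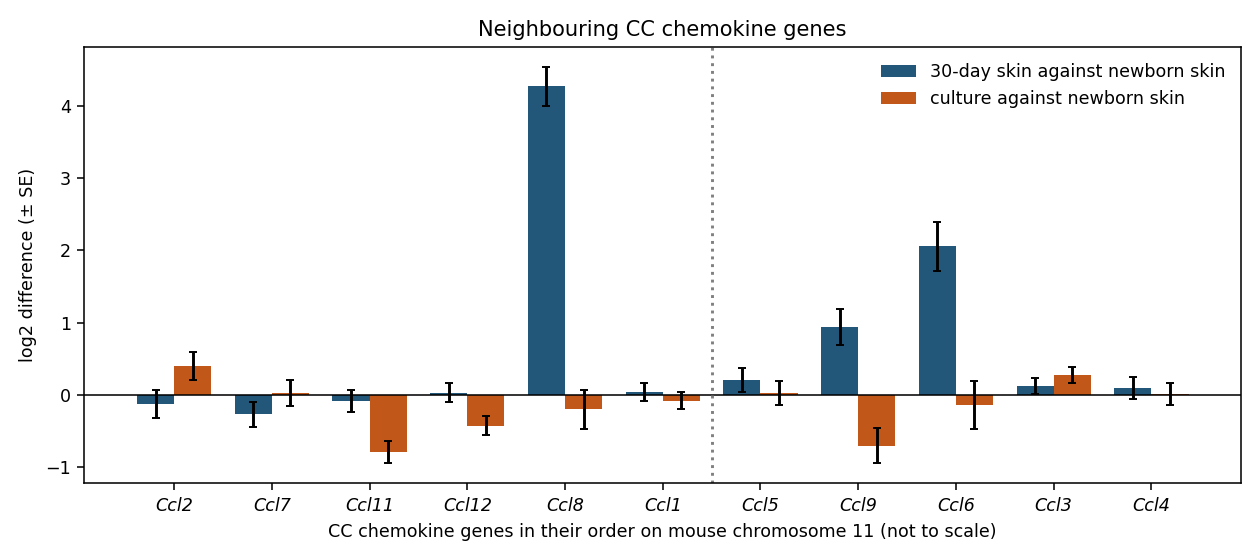
Log2 differences (bars, with standard errors as whiskers) of 11 CC chemokine genes in their order on chromosome 11, for 30-day against newborn skin and culture against newborn skin. The dotted line marks the 25 other coding genes between the groups of neighbours. Ccl8 at 4.27 and Ccl6 at 2.05 stand above neighbours near 0 in 30-day against newborn skin.

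The promoter of Ccl8 is shown because the gene had the largest difference of all members. These are the 120 bases before its start on the plus strand (RefSeq, GRCm38.p6, chr11:82115065-82115184), with TATAAA on either strand in capitals.
Ccl8: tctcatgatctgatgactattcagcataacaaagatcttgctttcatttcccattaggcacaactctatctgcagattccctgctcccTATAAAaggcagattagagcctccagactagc
The match began at -32 from the start, and the neighbour Ccl12 had one at -31 from its own. In the full windows 11 of the 37 members with a promoter (29.7%) held this motif, beside 4473 of 32851 promoters (13.6%). Here too members are counted as genes and the background as single promoters. No printed stretch held both TATAAA and a κB match, so how the motifs lie to each other was not compared.

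Markers of several leukocyte types also differed between the skins. Of 14 macrophage markers 5 were higher and none lower in 30-day than in newborn skin: Lyz2 (1.80), Cd163 (1.28), C1qb (0.98), C1qc (0.88) and Folr2 (0.78), while Csf1r, Mrc1 and Adgre1 did not pass. In culture 12 of 14 were lower than in skin. The list mean was 4.94 to 5.28 in culture, 7.21 to 7.47 in 30-day skin and 6.88 to 6.89 in newborn skin. Of 10 dendritic and Langerhans cell markers 5 were higher in 30-day skin, led by H2-Aa (3.62) and Cd74 (3.25), which load antigen for T cells, and Cd207, the langerin of Langerhans cells, was higher by 0.72. General leukocyte markers gave 4 higher and 1 lower of 11, with list means of 6.41 to 6.91 in 30-day skin and 6.23 to 6.25 in newborn skin. Their part in the Ccl8, Ccl6 and Ccl9 differences was not tested. Mast cell markers ran the other way, with 6 of 9 lower in 30-day skin.

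Eotaxins, which draw eosinophils through Ccr3, were lower in culture. Ccl11 was 4.59 to 4.69 in culture, 4.93 to 5.61 in 30-day skin and 5.35 and 5.55 in newborn skin, -0.75 ± 0.11 in culture against skin (adjusted p = 4.96e-05), with replicate 1 of 30-day skin the lowest skin sample and -0.80 without it. Ccl24 was 5.95 to 6.59 in culture, 6.25 to 6.69 in 30-day skin and 6.90 and 6.87 in newborn skin, and overlapped with 30-day skin. Its difference of -0.58 against newborn skin (adjusted p = 0.0121) was lost without newborn replicate 1 (adjusted p = 0.0874) or 2 (adjusted p = 0.073), and that of -0.39 against both skin groups without replicate 1 (adjusted p = 0.0512). Over FVB samples alone Ccl24 was -0.72 ± 0.15 in culture against newborn skin (adjusted p = 0.000469). With the strain difference between cultures taken off skin, that difference was -0.72 (adjusted p = 0.00132). In that setting Ccl24 was also called lower in 30-day than in newborn skin (-0.74, adjusted p = 0.0306). Ccr3 passed in no comparison (-0.16 in culture against skin).

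The monocyte attractants that act through Ccr2 did not move as 1 group. Ccl12, a mouse ligand, was lower in culture (-0.45 ± 0.096, adjusted p = 0.00132), at 4.19 to 4.47 in culture, 4.61 to 5.03 in 30-day skin and 4.75 and 4.79 in newborn skin. Against newborn skin alone (-0.43) that call was lost without newborn replicate 1 (adjusted p = 0.087) or 2 (adjusted p = 0.121). Ccl2 was higher in culture (0.46 ± 0.14, adjusted p = 0.0157), at 6.61, 6.53, 5.84, 6.05 and 6.03 in the 5 cultures, 5.57 to 5.97 in 30-day skin and 5.65 and 6.0 in newborn skin. The 2 mixed-strain cultures were highest, the FVB cultures overlapped with skin, and the call was lost without newborn replicate 1 (0.37, adjusted p = 0.0942). Ccl7 did not pass against skin (0.16). With the strain difference between cultures taken off skin, it was called higher in culture than in 30-day skin (0.60, adjusted p = 0.00132). Ccl3, Ccl4 and Ccl5, attractants of monocytes and T cells, passed in none of the 5 comparisons, with culture against skin at 0.21 (adjusted p = 0.0501), -0.03 and -0.09, and neither did Ccl1, a ligand of Ccr8 (-0.10).

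Among 7 chemokines for lymphocytes and dendritic cells only Ccl20 was called. Ccl20, made by epithelial cells and read by Ccr6, gave 6.21, 6.31, 6.0, 5.98 and 5.93 in the 5 cultures, 5.34, 5.20, 5.33, 5.57 and 5.37 in the 5 samples of 30-day skin, and 5.34 and 5.35 in newborn skin. Every culture was above every skin sample (0.73 ± 0.092 or 1.66-fold, adjusted p = 1.06e-05), while the skins differed by 0.02 (adjusted p = 0.96). Centred on epithelial junction genes, the difference from newborn skin was 0.10 (adjusted p = 0.597). Ccr6 passed in no comparison and was 5.28 to 5.58 in culture, 5.42 to 5.65 in 30-day skin and 5.42 and 5.45 in newborn skin. Ccl27a, a skin chemokine of keratinocytes for T cells that carry Ccr10, was 4.58 to 4.85 in culture, 4.57 to 5.03 in 30-day skin and 4.92 and 5.02 in newborn skin and did not pass, at -0.28 against newborn skin (adjusted p = 0.1). Without replicate 1 of 30-day skin it was called lower in 30-day than in newborn skin (-0.32, adjusted p = 0.0472) and in culture than in newborn skin (adjusted p = 0.0411). Copies of this gene can share signal. Ccl28, also read by Ccr10, was -0.08 in culture against skin. Ccl17 and Ccl22, ligands of Ccr4, were -0.03 and -0.11, Ccl25, a ligand of Ccr9, 0.09, and Xcl1, made by T and NK cells, -0.02, none past the threshold. Without replicate 1 of 30-day skin Ccl25 was called higher in 30-day than in newborn skin (0.33, adjusted p = 0.0424).

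The 3 interferon-induced CXC chemokines, which draw T cells through Cxcr3, had small differences. Cxcl10 was 4.93 to 5.28 in culture, 4.95 to 5.17 in 30-day skin and 4.80 and 4.59 in newborn skin. Culture was higher than newborn skin by 0.45 ± 0.11 (adjusted p = 0.00523), and so was 30-day skin, by 0.36 ± 0.11 (adjusted p = 0.0416). Without newborn replicate 2 neither passed (0.35, adjusted p = 0.107, and 0.26, adjusted p = 0.418). The call between the skins was also lost without any 1 of 30-day replicates 1, 2, 4 and 5, and without cultures 2 or 3. It was lost too without newborn replicate 1, which leaves newborn skin with 1 value. With strain as a covariate it was 0.24 (adjusted p = 0.422). Cxcl9 was lower in culture than in 30-day skin (-0.36 ± 0.11, adjusted p = 0.0121) and overlapped with it. That call was lost with strain as a covariate (-0.22, adjusted p = 0.209). Cxcl11 passed in no comparison (-0.06 in culture against skin), nor did Cxcr3 (-0.10).

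Receptors are carried mostly by leukocytes, and beside Cxcr4 only 4 of the 18 were called anywhere. Ccr2, the monocyte receptor, gave 4.57, 4.70, 4.71, 4.57 and 4.82 in the 5 cultures, 6.0, 5.28, 5.42, 5.25 and 5.03 in the 5 samples of 30-day skin, and 4.86 and 4.76 in newborn skin. Culture lay below 30-day skin (-0.72 ± 0.14, adjusted p = 0.000663) and overlapped with newborn skin. Replicate 1 of 30-day skin was highest, as for Ptprc, and without it culture was -0.57 ± 0.093 against 30-day skin (adjusted p = 0.00015). Between 30-day and newborn skin Ccr2 differed by 0.59 ± 0.19 (adjusted p = 0.0499), a call lost without any 1 of 10 of the 12 arrays (adjusted p between 0.0549 and 0.31). With strain as a covariate it was 0.65 (adjusted p = 0.169). The call was kept at 0.44 (adjusted p = 0.0229) without 30-day replicate 1. Of its 3 probe sets, tested each on its own, only the dimmest passed between the skins (0.56), and 2 passed in culture against skin (-0.43 and -0.53). The call against both skin groups was lost without newborn replicate 1 (adjusted p = 0.0709).

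Ccr1, a myeloid receptor, was -0.24 ± 0.086 in culture against skin (adjusted p = 0.03). The call was lost without newborn replicate 2 (-0.17, adjusted p = 0.18) or without any 1 of cultures 1 to 3 (adjusted p between 0.0518 and 0.0667), and its second probe set did not pass (-0.05). Against newborn skin (-0.36, adjusted p = 0.027) it was lost without newborn replicate 2 (adjusted p = 0.354). Cxcr5, the B cell receptor, was lower in culture than in newborn skin (-0.31, adjusted p = 0.0358), lost without either newborn sample or cultures 1 or 2 (adjusted p between 0.0688 and 0.175). Ccr1l1 was lower in culture than in 30-day skin (-0.26, adjusted p = 0.0393), lost without any 1 of 8 arrays (adjusted p between 0.0591 and 0.0915). The calls of Ccr1 and Cxcr5 against newborn skin and of Ccr1l1 against 30-day skin were also lost with strain as a covariate (adjusted p of 0.0567 for Ccr1, 0.105 for Cxcr5 and 0.349 for Ccr1l1). Ccr3, Ccr4, Ccr6, Ccr7, Ccr8, Ccr9, Ccr10, Ccrl2, Cx3cr1, Xcr1, Cxcr2, Cxcr3 and Cxcr6 passed in none of the 5 comparisons. Ccr7, which guides dendritic cells to lymph nodes, was 4.61 to 5.12 in culture, 4.57 to 4.99 in 30-day skin and 4.67 and 4.76 in newborn skin.

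Strain was compared within culture, 2 mixed-strain against 3 FVB cultures. Ccl6 was 6.63 and 6.43 in mixed-strain and 5.51, 5.41 and 5.35 in FVB cultures, higher by 1.11 ± 0.21 (adjusted p = 0.00448). Cxcl1 was 6.91 and 7.06 in mixed-strain and 6.13, 6.73 and 5.76 in FVB cultures (0.78 ± 0.19, adjusted p = 0.0201). Ccl2 was 6.61 and 6.53 in mixed-strain and 5.84, 6.05 and 6.03 in FVB cultures (0.59 ± 0.14, adjusted p = 0.0155), and Ccl7 5.68 and 5.46 in mixed-strain and 4.93, 5.0 and 5.25 in FVB cultures (0.51 ± 0.14, adjusted p = 0.0323). In each of the 4 both mixed-strain cultures lay above all FVB cultures, as they also did in several members not called for strain. Among these were Ccl20 (6.21 and 6.31 over 6.0, 5.98 and 5.93) and Cxcl16 (9.97 and 10.05 over 9.90, 9.50 and 9.71). The share of all genes with this order was not counted. The calls rest on few arrays: without culture 1, which leaves 1 mixed-strain culture, all 4 were lost (adjusted p of 0.0815 for Ccl6, 0.112 for Cxcl1, 0.163 for Ccl2 and 0.315 for Ccl7). Cxcl1, Ccl2 and Ccl7 were also lost without culture 2 (0.166, 0.0892 and 0.0844) or culture 3 (0.0631, 0.058 and 0.102), and Ccl7 without culture 4 (0.0969). Cultures 1 and 2 were the most alike of all pairs of cultures, and with them and cultures 3 and 4 averaged, which leaves 1 mixed-strain value, none of the 4 passed.

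Other genes differed between the same cultures. Il1a, the keratinocyte alarm cytokine that induces Cxcl1, was 9.51 and 9.10 in mixed-strain and 6.63, 6.97 and 7.08 in FVB cultures, 2.41 ± 0.15 higher (adjusted p = 6.21e-07), and Il33 was 8.14 and 8.0 in mixed-strain and 5.75, 5.92 and 5.51 in FVB cultures, 2.35 ± 0.16 higher (adjusted p = 1.08e-06). Of the macrophage markers only Lyz2 was called, higher by 1.27, while Adgre1 (0.18) did not pass. Of the fibroblast markers Col1a2 (1.36), Col3a1 (0.92) and Pdgfra (0.52) were higher. Il1a and Il33 came from 25 cytokines, receptors and NF-κB pathway genes with a median of 0.03. Of these 3 were higher, Il17a (0.43) being the third, and 1 lower, Il17ra (-0.62). Of 11 neutrophil markers 3 were lower and none higher: S100a8 (-1.42), S100a9 (-1.68) and Mmp9 (-0.86). Of 11 keratinocyte markers 3 were lower and none higher: Krt1 (-2.29), Krt10 (-1.17) and Trp63 (-0.70). Ackr3 was lower, at 5.42 and 5.42 in mixed-strain and 5.96, 6.71 and 6.68 in FVB cultures (-1.03 ± 0.19, adjusted p = 0.00349). Their part in the 4 chemokine differences was not tested.

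Genes around the chemokines are given as lists. Of 25 cytokines, receptors and NF-κB pathway genes, inhibitors of the pathway among them, 15 were higher and 3 lower in culture than in skin, with a median of 0.46. Il1a was 6.63 to 9.51 in culture, 4.63 to 4.90 in 30-day skin and 4.95 and 4.91 in newborn skin, Tslp was higher by 2.82, Il33 by 2.16 and Icam1 by 1.80. Nfkbiz, which NF-κB needs at some of its targets, was 7.11 to 7.57 in culture, 5.52 to 6.24 in 30-day skin and 5.69 and 5.56 in newborn skin, and Tnf 6.37 to 6.82 in culture, 5.66 to 6.10 in 30-day skin and 5.99 and 5.98 in newborn skin. Il1b was 5.55 to 5.79 in culture, 5.53 to 5.73 in 30-day skin and 5.68 and 5.49 in newborn skin and did not pass. The 3 lower genes were Il18 (-1.16) and the receptors Tnfrsf1a (-0.92) and Il1r1 (-0.45). In 30-day against newborn skin Il18 alone of the 25 was called, lower by 1.38. Of 23 genes of receptor signalling 4 were higher and 9 lower in culture, among them Arrb1 (-1.36), which desensitises receptors, Pik3cg (-0.72), a lipid kinase, Gnb1 (0.99), a G protein subunit, and Stat3 (0.66), a transcription factor. Between the skins none was higher and 4 were lower at 30 days.

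Of 9 chemokine system genes outside the symbol rule 2 were higher in culture, Ppbp and the decoy receptor Ackr2 (0.24), and 5 lower: Pf4, Rarres2, which encodes chemerin (-2.24), Dpp4, a protease that trims chemokines (-2.23), Ackr1 (-0.56) and Ackr4 (-0.30). At 30 days, against newborn skin, Ackr4 was higher (0.37) and Pf4 (-1.41) and Rarres2 (-0.54) lower. Of the cell type lists not yet given, culture against skin called 3 of 10 T cell markers, 7 of 9 mast cell and 11 of 13 endothelial and lymphatic markers lower and none higher. Of the dendritic and Langerhans cell markers 6 of 10 were lower and Epcam, which keratinocytes in culture also express, higher. None of 5 B cell markers was called in either of these comparisons. Keratinocyte markers gave 5 higher, Krt5, Krt14, Cdh1, Itgb4 and Sfn, and 3 lower of 11, the last being Krt1, Krt10 and Dsp. In 30-day against newborn skin 2 of 10 T cell markers were higher, Cd3g (0.57) and Cd3d (0.44), 4 of 11 fibroblast markers lower, 1 keratinocyte marker higher and 3 lower, and no neutrophil marker was called.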

How the data were processed

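RNA of 12 samples was labelled with biotin and hybridised to Affymetrix mouse arrays, per the labels. The deposited values are log2 values made with RMA, per the submitters' processing notes. For RMA no version or setting is given in the sources used here. Values ran from 2.89 to 13.59, and the number of arrays limits their precision. RMA normalises by quantiles, which takes RNA to be distributed alike in skin and culture.

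Of 22690 probe sets, 64 controls were left out, 20380 had 1 symbol in the platform annotation, 691 several and 1555 none. By gene identifier 20351 matched RefSeq, and 0 symbols were updated. The Ccl21 probe set carries several symbols and is not used here. Groups came from sample titles. The tests used R 4.3.3 and limma 3.58.1 (lmFit, then eBayes; two-sided; Benjamini-Hochberg over 12393 genes; threshold 0.05) on all 12 arrays with 1 mean per group, or, for strain in culture, with the cultures split into mixed-strain and FVB. Probe sets were also tested each on its own, over 22626. Errors of differences are standard errors. Lists are described by counts, medians and means over the list's genes, with no test of the list.

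The members and lists were chosen with earlier results of these data known. Each member may be named, and those called with a difference of at least 1 have their value in every sample. From other lists up to 4 called genes with the largest difference, and 13 fixed genes, may be named; further genes of those lists were chosen after their values were seen. Alternatives covered the probe set rule, normalisation and centring, strain as a covariate, FVB arrays alone, each array left out, a replicate block, weights per array, another variance model and leaving out the 40% of genes with the lowest mean. With strain as a covariate, the strain term came from the cultures alone, because strain and age coincide in skin. It was taken to be the same in skin. Averaging close arrays was added after seeing the data. The fits were tested on simulated data. Promoters and gene order came from RefSeq (GRCm38.p6). Python 3.11.15, pandas 2.3.3 and matplotlib 3.10.9 were used.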

Additional observations from a re-analysis of the deposited data

Results flagged for a closer look

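Of 100 sets of values checked (50 genes in the 5 cultures and in the 5 samples of 30-day skin), 4 held a sample far from the rest of its group, where chance gives about 1 in 20. Ccl25 was 4.88 in culture replicate 4, with the other cultures at 5.0 to 5.04. Ccl1 was 5.80 in replicate 4 of 30-day skin, with the others at 5.42 to 5.52. Ccr1l1 was 4.55 in replicate 1 of 30-day skin, the sample that stood apart in its actin and 18S controls, with the others at 4.86 to 4.95. Ccr9 was 4.27 in replicate 5 of 30-day skin, with the others at 4.44 to 4.47. All are dim and none was called between the skins.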

How the results depend on the processing

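For the 8 members with values in every sample, 832 of their results under alternatives kept their side of the threshold, 23 lost and 7 gained a call. Of results called in either fit, 0 reversed direction. Uncalled ones could change direction, as Cxcl1 did in 30-day against newborn skin (0.04, and -0.74 with strain as a covariate). Of the calls listed, 11 of 19 in culture against skin, 6 of 15 against newborn skin, 14 of 18 against 30-day skin, 2 of 6 in 30-day against newborn skin (Ccl8 and Cxcr4) and 0 of 4 for strain passed in every setting run. Centring on the median moved the median of all genes by 0.15 to 0.18 in culture and gave 12 members higher against skin, 10 higher and 4 lower against newborn skin and 10 higher against 30-day skin. Over all 12393 genes the counts were 5075 higher against skin, 3876 higher and 1727 lower against newborn skin and 4909 higher against 30-day skin. A further quantile normalisation gave 10 higher and 5 lower against newborn skin, beside 2902 and 2020 of all genes. Centring on epithelial junction genes moved the median of all genes by -0.41 in culture against skin, -0.19 against 30-day skin and -0.46 in 30-day against newborn skin. It gave 3 members higher and 41 lower against skin, beside 1076 and 7884 of all 12393 genes. Against newborn skin it gave 2 and 43, beside 462 and 9068 of all genes. Against 30-day skin 20 were lower, beside 3897. In 30-day against newborn skin 2 were higher and 19 lower, beside 234 and 7321. Without the dimmest 40% of genes 12 members were left, with 2 higher and 7 lower against skin, 1 and 4 against newborn skin, 2 and 6 against 30-day skin, 3 and 0 in 30-day against newborn skin and 2 higher for strain. Of all 7436 genes then left, 60.9%, 48.5%, 62.8%, 20.8% and 14.8% were called in these 5 comparisons, in that order. In 30-day against newborn skin a variance trend gave 2 lower, beside 1145 of all genes, and array weights 4 lower, beside 1971. Strain as a covariate gave 2 higher and 4 lower there, beside 659 and 733 of all genes. Array weights gave 12 higher for strain, beside 1185 of all genes. Averaging close arrays left newborn skin and the mixed-strain cultures at 1 value each. Calls in the comparisons with them then became fewer among members and among all genes alike. Leaving out 1 array gave 4 to 10 lower against newborn skin, 2 to 5 higher and 1 to 2 lower in 30-day against newborn skin, and 0 to 6 higher for strain. Apart from what construction shows (fewer genes or arrays, down to 1 value in newborn skin or mixed-strain cultures), the cause was not tested.

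Same-numbered samples did not deviate together (9 pairs, r from -0.28 to 0.23, 1 over 0.1), so the numbers do not pair samples. With the replicate block 5 members were lower against newborn skin, beside 1944 of all genes, and 2 higher in 30-day against newborn skin, beside 513. The strain comparison shares no number, so no block was run there, and strain was no covariate of itself. Dim signal limits what flat members can show.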
